A study of Homo sapiens with 4 samples.

Results

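The genes described here are 44 genes of DNA replication and mitosis, followed in human embryonic stem cells that were driven toward mesoderm with or without secreted Wnt ligands. They were chosen by symbol, and all 44 were found among the 58365 rows of the expression table, none of them more than once. By their known roles, 24 act before or during DNA synthesis (S phase) and 20 act at the entry into or during mitosis. H1, an established human embryonic stem cell line, was kept in a custom mTeSR1 medium with activin A (40 ng/ml) and BMP4 (50 ng/ml), which induce mesoderm, and harvested at day 2 of hematopoietic differentiation. These doses are those of the labels, and the methods of the study give them the other way round. The DMSO group (n = 2 samples) received activin A and BMP4 without the inhibitor. The IWP2 group (n = 2 samples) received the same factors plus IWP2, an inhibitor of Porcupine, the enzyme that lipidates Wnt proteins so that they can be secreted. The dose of IWP2 was not given in the sources used here, and all samples came from this single line. Nothing in the labels stated that the samples of a group were separate cultures. Every p-value therefore rested on the spread between these samples, which may be technical. The fit shared that spread in part over all genes tested.

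A dividing cell copies its genome once and then segregates it, and the genes for these steps are transcribed in waves. Origins are licensed when ORC, CDC6 and CDT1 load the MCM2 to MCM7 helicase, and the genes of this step are classic targets of E2F transcription factors. Mitotic genes such as CDK1 and the B-type cyclins peak later, and many of them carry a cell cycle homology region (CHR) that is bound by the MuvB complex, as part of DREAM when they are repressed and with B-MYB or FOXM1 when they are active. Human pluripotent stem cells cycle quickly and express most of these genes highly.

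Expression was given as FPKM, fragments scaled to the length of the transcript and to the total of mapped fragments, so that levels can be compared between genes. Differences are log2 fold changes of FPKM + 1, IWP2 minus DMSO, from a limma fit over the 14022 genes with a mean of at least 1 FPKM, and a gene was called when its Benjamini-Hochberg adjusted p over all of these genes was below 0.05. The labelled treatment was visible in the Wnt targets. AXIN2, a feedback inhibitor of the pathway, measured 14.2 and 15.2 FPKM in DMSO and 6.45 and 5.58 FPKM in IWP2. SP5, a direct Wnt target, measured 53.2 and 47.1 FPKM in DMSO and 0.379 and 0.363 FPKM in IWP2. Of 10 Wnt target genes, 8 were called lower with IWP2. The state of the cells differed as well. The mesoderm factors MIXL1 (log2 fold change -3.60) and EOMES (-3.41) were among 7 of 7 mesoderm markers called lower, POU5F1 rose from 750.7 and 571.4 FPKM to 1854 and 1844 FPKM, and SOX2 rose from 0.193 and 0.174 FPKM to 35.6 and 36.1 FPKM, while NANOG (0.98, limma adjusted p = 0.165) was not called. Of the 7 pluripotency markers, 4 were called higher and 1 lower, TDGF1 (-1.06, limma adjusted p = 0.00262). Of 4 endoderm markers, 3 were called lower, GATA6 (-4.90), FOXA2 (-2.18) and HHEX (-1.27). The endoderm marker SOX17 (-0.54, limma adjusted p = 0.152) was not called. Of 4 neural markers, only NES passed the expression filter, and it was called higher (0.49). Of the 6 markers of endothelium and blood, PECAM1, CDH5, SPN and PTPRC were under 0.5 FPKM in all samples. RUNX1 was called lower, at 2.51 and 2.35 FPKM in DMSO and 0.210 and 0.350 FPKM in IWP2, and CD34 measured 5.43 and 2.04 FPKM in DMSO and 1.81 and 1.79 FPKM in IWP2. In such bulk samples, fewer cells in a phase of the cycle and less RNA per cell cannot be told apart. FPKM values keep no read depth, so the precision of each value is known only from the spread between samples. The sums of FPKM ran from 616418 to 653850 per sample.

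Against these changes, the replication and mitosis genes moved little. Between the groups, 2129 of the 14022 genes tested were called (15.2%), 946 higher with IWP2 (6.75%) and 1183 lower (8.44%). All 44 members passed the expression filter, and 1 of them was called (2.27%): MCM3, a subunit of the replicative helicase, which was higher with IWP2. Without adjustment, 10 members had a limma p below 0.05 (22.7%), beside 30.3% of all genes tested. The members' log2 fold changes ran from -0.71 to 0.40 with a median of -0.01, beside -0.02 over all genes. A log2 fold change beyond 0.5 in either direction was seen in 1 member (CENPE) and in 21.7% of all genes. The members were expressed at higher levels, with a median mean of 46.88 FPKM beside 10.2 FPKM over all genes tested. Levels were not matched in these comparisons. For 43 of the 44 members, all but CENPE, the 95% confidence interval lay within 1 log2 unit of 0.

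**Figure D1:**
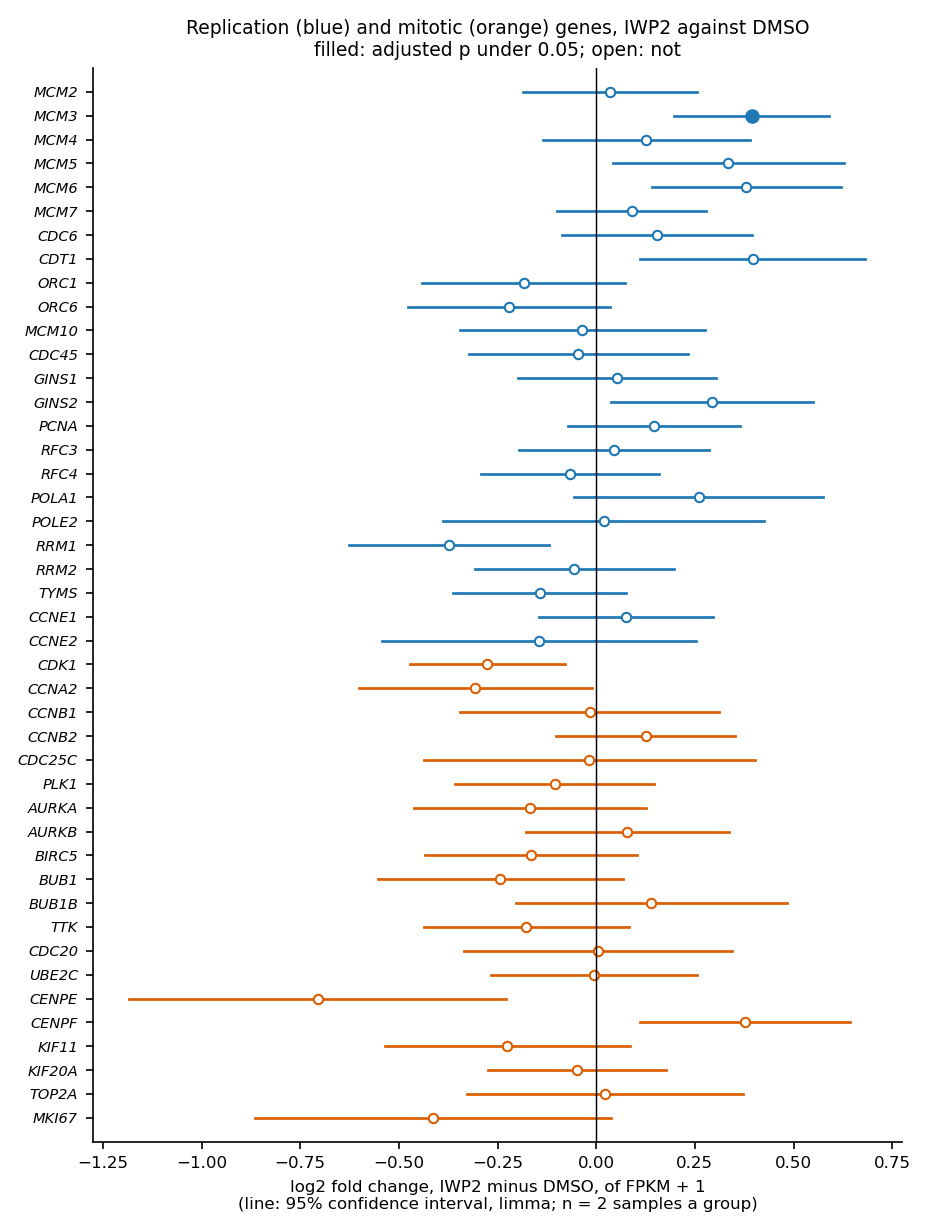
Log2 fold change of FPKM + 1, IWP2 minus DMSO (x axis), of each of the 44 genes (y axis), S-phase genes in blue and mitotic genes in orange, with the 95% confidence interval from limma as a line (n = 2 samples a group). MCM3 is the single filled point (adjusted p = 0.0295), the estimates lie between -0.71 and 0.40, and the interval of CENPE is the widest.

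The S-phase and mitotic members leaned to opposite sides of 0, by small amounts. Among the 24 S-phase members, 1 was called higher, 15 had estimates above 0 and 9 below, and the median log2 fold change was 0.05. Among the 20 mitotic members, limma called 0. The 1 called S-phase member was 4.17% of its phase, and 15.2% of all genes tested were called. An unadjusted limma p below 0.05 was seen in 6 of the 24 S-phase members (25.0%) and in 4 of the 20 mitotic members. Over all genes tested this share was 30.3%. Of the 20 mitotic members, 6 had estimates above 0 and 14 below, with a median of -0.08. After median-of-ratios scaling CCNB1, CDC25C and UBE2C, all close to 0, moved to the upper side. Both IWP2 samples lay above both DMSO samples in 10 S-phase members (41.7%) and 2 of the 20 mitotic members, beside 28.0% of all genes. Both lay below in 5 S-phase members (20.8%) and 9 mitotic members (45.0%), beside 32.0% of all genes. These counts describe genes that share 4 libraries and are not independent of each other.

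The promoters of the members differ by phase in the motifs they hold. Below are the 180 bases directly upstream of the annotated transcription start, 5′ to 3′, for the 4 S-phase genes with the smallest p that hold an E2F motif in that stretch, from RefSeq (GRCh38.p14). They are shown because they include MCM3, the one called member, and because E2F motifs mark genes of this phase. The capitals mark E2F motif matches on either strand, searched as TTTCCCGC, TTTCGCGC, TTTGCCGC and TTTGGCGC. The stretches lie at chr6:52284743-52284922 (MCM3, minus strand), chr2:135876444-135876623 (MCM6, minus strand), chr16:88803609-88803788 (CDT1, plus strand) and chr16:85688955-85689134 (GINS2, minus strand). Distances below are from the RefSeq start. The quantified gene begins further upstream in CDT1 (at 88803213) and GINS2 (at 85690073), so both stretches lie inside it. That of MCM3 begins within its stretch (at 52284881).
MCM3: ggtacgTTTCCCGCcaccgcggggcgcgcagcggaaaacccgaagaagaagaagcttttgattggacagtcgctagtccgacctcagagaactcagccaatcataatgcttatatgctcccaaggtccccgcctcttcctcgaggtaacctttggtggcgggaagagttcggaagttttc
MCM6: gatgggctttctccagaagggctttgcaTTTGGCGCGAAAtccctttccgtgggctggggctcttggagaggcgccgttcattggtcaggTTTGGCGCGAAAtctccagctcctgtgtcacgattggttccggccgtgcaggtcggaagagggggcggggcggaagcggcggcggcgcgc
CDT1: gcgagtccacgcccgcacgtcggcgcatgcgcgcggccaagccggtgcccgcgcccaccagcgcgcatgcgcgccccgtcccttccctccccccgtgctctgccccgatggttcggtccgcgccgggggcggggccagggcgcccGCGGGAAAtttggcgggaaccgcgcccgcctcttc
GINS2: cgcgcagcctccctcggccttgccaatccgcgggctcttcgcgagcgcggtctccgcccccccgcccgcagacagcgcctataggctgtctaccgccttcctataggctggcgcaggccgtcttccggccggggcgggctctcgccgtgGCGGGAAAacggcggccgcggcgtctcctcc

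In MCM6, 4 matches overlap pairwise and so sit in 2 places, with first bases 152 and 90 bases before the start. The match of CDT1 began 35 bases before the start and that of GINS2 31 bases before it. MCM3 held 1 match 174 bases before the start and another across the start itself, which the printed stretch does not reach.

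The corresponding stretches of 4 mitotic genes are printed for comparison, with TTTGAA matches on either strand in capitals. Among members with a RefSeq promoter sequence, these have the smallest p of those that hold a CHR motif there. No such sequence was available for TTK, BIRC5 and AURKA, whose p was smaller than that of CCNB2. The printed stretches lie at chr10:60778298-60778477 (CDK1, plus strand), chr10:128126424-128126603 (MKI67, minus strand), chr10:92592950-92593129 (KIF11, plus strand) and chr15:59104966-59105145 (CCNB2, plus strand). The quantified genes of CDK1 (at 60778331) and CCNB2 (at 59105078) begin within their stretches.
CDK1: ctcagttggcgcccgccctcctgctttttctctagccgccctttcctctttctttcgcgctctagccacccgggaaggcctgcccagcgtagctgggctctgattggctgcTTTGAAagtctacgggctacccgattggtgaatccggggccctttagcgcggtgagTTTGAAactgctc
MKI67: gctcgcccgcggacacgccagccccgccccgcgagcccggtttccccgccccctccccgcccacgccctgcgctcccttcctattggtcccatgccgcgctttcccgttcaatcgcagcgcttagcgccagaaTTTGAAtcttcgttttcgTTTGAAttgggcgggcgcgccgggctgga
KIF11: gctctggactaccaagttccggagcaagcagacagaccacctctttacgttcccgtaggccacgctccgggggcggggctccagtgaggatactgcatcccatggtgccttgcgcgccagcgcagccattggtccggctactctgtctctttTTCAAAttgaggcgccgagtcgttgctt
CCNB2: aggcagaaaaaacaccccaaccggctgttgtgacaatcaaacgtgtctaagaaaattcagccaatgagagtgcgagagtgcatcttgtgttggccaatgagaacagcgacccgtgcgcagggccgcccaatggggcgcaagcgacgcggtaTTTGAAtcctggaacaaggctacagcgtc

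Within the printed stretches, the CHR match nearest the start began 29 bases before it in MKI67 and CCNB2, 28 in KIF11 and 13 in CDK1. CDK1 held another match just past the start, which the printed stretch does not reach. A RefSeq window from 250 bases before to 50 bases after the start was found for 37 of the 44 members, 21 S-phase and 16 mitotic. The E2F motif was present in 13 S-phase members (61.9%) and in 1 mitotic member (6.25%), CDK1, beside 3.99% of the 27305 genes with a window. The CHR motif was present in 1 S-phase member (4.76%), RRM1, and in 10 mitotic members (62.5%), beside 18.2% of all genes. The CCAAT box, searched as CCAAT on both strands, was found in 14 members of each phase, which is 66.7% of the S-phase and 87.5% of the mitotic members with a window, beside 39.7% of all genes. A match describes the letters in the window and not a bound site. Within the S-phase members, the median log2 fold change was 0.15 in the 13 with an E2F match and -0.06 in the 8 without, and no test was made of that difference. Among the mitotic members it was -0.007 in the 10 with a CHR match and -0.15 in the 6 without.

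**Figure D2:**
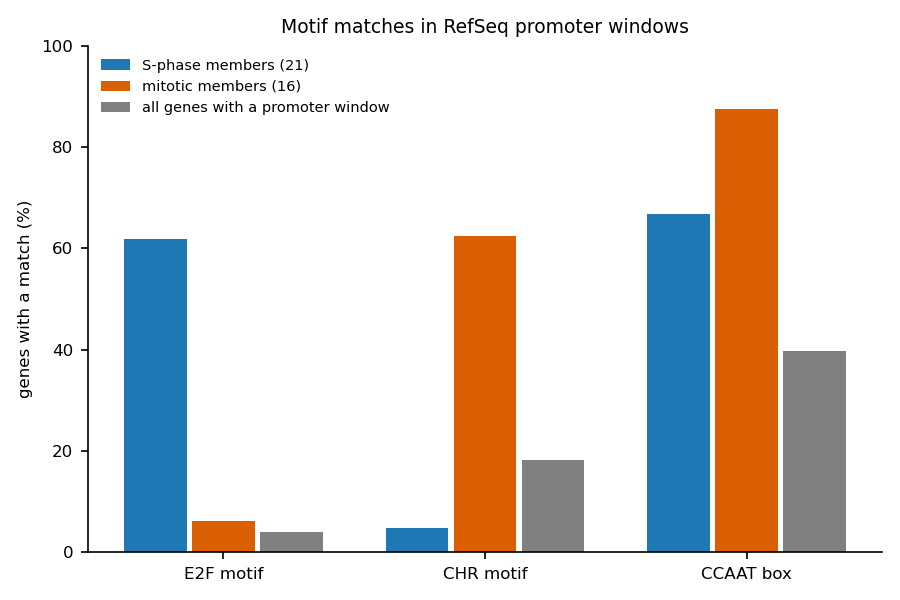
Share of genes (y axis, percent) whose RefSeq promoter window holds an E2F motif, a CHR motif or a CCAAT box (x axis), for the 21 S-phase members, the 16 mitotic members and all genes with a window. The E2F bar is high in the S-phase members (61.9%) and the CHR bar in the mitotic members (62.5%).

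The 10 licensing factors had the highest median log2 fold change of the roles, 0.14. All 6 subunits of the MCM2 to MCM7 helicase had estimates above 0 (beside 47.6% of all genes tested), with a median of 0.23. In 4 of them (66.7%) both IWP2 samples lay above both DMSO samples, beside 28.0% of all genes. The exceptions were MCM2 (43.0 and 44.4 FPKM in DMSO, 46.5 and 43.2 FPKM in IWP2) and MCM4, whose groups overlapped. MCM3, which lies on the minus strand of chromosome 6, measured 78.3 and 78.7 FPKM in DMSO and 105.9 and 101.0 FPKM in IWP2. The groups did not overlap, and the samples of each group lay close together. Its log2 fold change was 0.39 (95% confidence interval 0.20 to 0.59, limma adjusted p = 0.0295), a ratio of group means of 1.32. This call was lost when any single sample was left out, with estimates between 0.36 and 0.43 and adjusted p between 0.092 and 0.179. With all samples it was also lost without the filter on low values (limma adjusted p = 0.0731) and without the mean trend (limma adjusted p = 0.0745).

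MCM6, another helicase subunit, measured 31.1 and 34.8 FPKM in DMSO and 43.3 and 43.0 FPKM in IWP2. Both IWP2 samples were higher, and the log2 fold change of 0.38 (0.14 to 0.62) had a limma adjusted p of 0.0562. MCM5 measured 65.5 and 56.2 FPKM in DMSO and 81.7 and 72.1 FPKM in IWP2. The groups were separate here as well, although the spread within each was wide (0.33, 0.04 to 0.63, limma adjusted p = 0.124). MCM4, the S-phase member with the highest mean FPKM, measured 141.9 and 160.0 FPKM in DMSO and 155.5 and 174.3 FPKM in IWP2. Its second DMSO sample exceeded its first IWP2 sample (0.13, limma adjusted p = 0.47). MCM7 differed little, at 123.6 and 121.5 FPKM in DMSO and 131.0 and 129.8 FPKM in IWP2.

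CDT1, the loader that brings the helicase to origins, measured 23.6 and 20.3 FPKM in DMSO and 27.9 and 30.4 FPKM in IWP2. Both IWP2 values were the higher ones, but the log2 fold change of 0.40 (0.11 to 0.68) was not called (limma adjusted p = 0.0796). Its inhibitor geminin (GMNN), which is not a member, measured 55.5 and 65.2 FPKM in DMSO and 57.0 and 64.8 FPKM in IWP2, and its groups overlapped. CDC6, the ATPase that acts with CDT1, had an estimate of 0.15. ORC1 and ORC6, the origin recognition subunits among the members, lay on the other side of 0. ORC6 measured 74.2 and 64.0 FPKM in DMSO and 58.4 and 59.5 FPKM in IWP2 (-0.22, limma adjusted p = 0.219), and ORC1 had an estimate of -0.18. Licensing genes therefore did not share a direction, since 8 of the 10 were above 0 and ORC1 and ORC6 were below. Among the other ORC subunits, ORC3 (0.14) and ORC4 (0.16) had estimates above 0, and ORC2 and ORC5 below it.

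**Figure D3:**
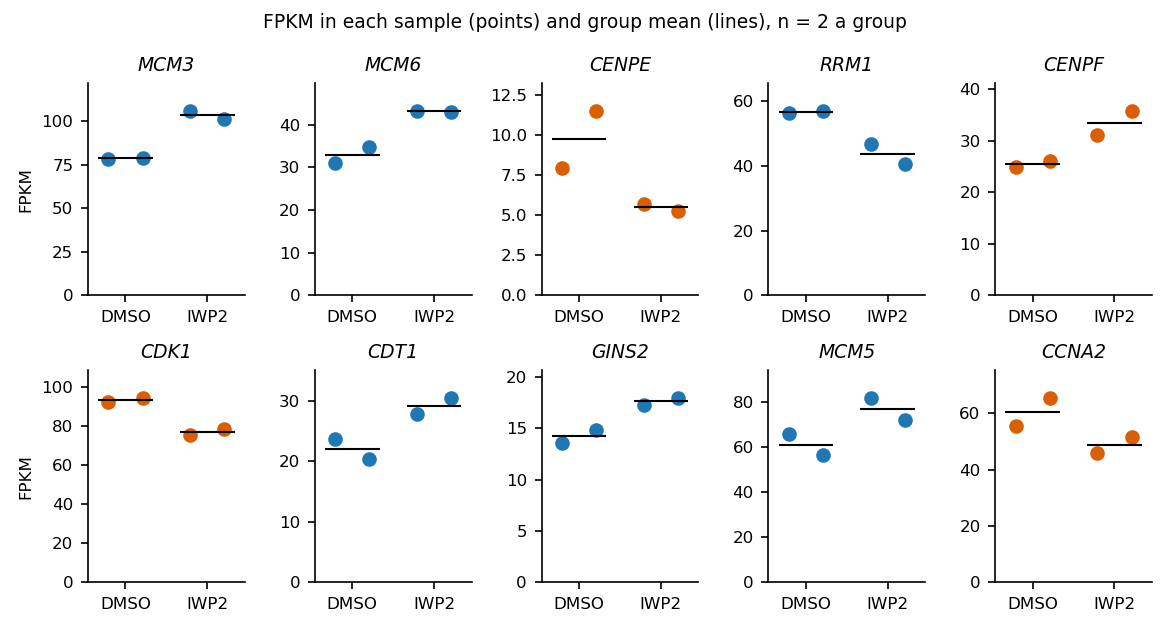
FPKM (y axes, from 0, a scale of its own in each panel) of the 10 members with the smallest p in the 2 DMSO and the 2 IWP2 samples, with points for samples and lines for group means. The groups do not overlap in any panel, and only MCM3 was called.

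At the replication fork, 6 of 9 genes had estimates above 0, none was called and the range was -0.07 to 0.29. GINS2, part of the GINS complex of the active helicase, measured 13.6 and 14.9 FPKM in DMSO and 17.3 and 18.0 FPKM in IWP2. Both IWP2 samples were higher (0.29, 0.04 to 0.55, limma adjusted p = 0.123). Its partner GINS1 had an estimate of 0.05, and CDC45, the third component of that helicase, -0.05. PCNA, the sliding clamp, measured 124.3 and 119.1 FPKM in DMSO and 128.9 and 140.9 FPKM in IWP2. POLA1, the catalytic subunit of polymerase alpha, measured 7.10 and 8.40 FPKM in DMSO and 9.35 and 9.54 FPKM in IWP2. Both were higher in each IWP2 sample without being called (0.15 and 0.26). GINS2, POLA1 and RFC4 each overlap another tested gene, so reads there may be shared. The clamp loader genes RFC3 and RFC4, the polymerase epsilon subunit POLE2 and the initiation factor MCM10 had estimates between -0.07 and 0.04, and their groups overlapped.

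The 3 nucleotide synthesis genes had estimates below 0. RRM1, the large subunit of ribonucleotide reductase, measured 56.4 and 57.1 FPKM in DMSO and 46.8 and 40.6 FPKM in IWP2. Both IWP2 samples were lower, and the log2 fold change of -0.37 (-0.63 to -0.12) was not called (limma adjusted p = 0.0675). Its partner RRM2 measured 106.5 and 113.4 FPKM in DMSO and 113.1 and 98.7 FPKM in IWP2, and these groups overlapped. TYMS, which makes thymidylate, had an estimate of -0.14. The genes of the subunits of ribonucleotide reductase thus had unlike values, and their difference was not tested. The E-type cyclins, which drive entry into S phase, lay on opposite sides of 0, and neither was called. CCNE1 lay between 22.0 and 23.5 FPKM in all samples, with both IWP2 samples above both DMSO samples (0.08). CCNE2, the member with the lowest mean of all 44, measured 2.80 and 3.08 FPKM in DMSO and 2.79 and 2.35 FPKM in IWP2. Its estimate was -0.14 (-0.54 to 0.25).

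Among the genes of mitotic entry, CDK1, the kinase that starts mitosis, measured 92.3 and 94.4 FPKM in DMSO and 75.6 and 78.3 FPKM in IWP2. The groups were well apart, but the log2 fold change of -0.28 (-0.47 to -0.08) was not called (limma adjusted p = 0.0761). CCNA2, the cyclin of S and G2 phase that partners CDK2 and CDK1, measured 55.7 and 65.5 FPKM in DMSO and 45.9 and 51.6 FPKM in IWP2. Both IWP2 values were below both DMSO values (-0.31, -0.60 to -0.01, limma adjusted p = 0.154), at a locus that overlaps EXOSC9. The B-type cyclins, the partners of CDK1 in mitosis, did not follow: CCNB1 measured 133.7 and 167.7 FPKM in DMSO and 142.0 and 154.2 FPKM in IWP2, and CCNB2 had an estimate of 0.13 with both IWP2 samples above both DMSO samples. The phosphatase CDC25C, which activates CDK1, had an estimate of -0.02.

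Neither the mitotic kinases nor the spindle checkpoint held a called gene. PLK1 (-0.11), AURKA (-0.17) and the AURKB partner survivin (BIRC5, -0.17) had estimates below 0, and AURKB (0.08) above it. The checkpoint kinases BUB1 (-0.24) and TTK (-0.18) had estimates below 0 with both IWP2 samples below both DMSO samples. BUB1B, which restrains the anaphase-promoting complex, measured 56.7 and 48.1 FPKM in DMSO and 63.4 and 52.3 FPKM in IWP2, and was the single mitotic member lower in DMSO 2 than in DMSO 1. UBE2C, the ubiquitin-conjugating enzyme of that complex and the member with the highest mean of all 44, measured 172.1 and 197.9 FPKM in DMSO and 176.3 and 191.7 FPKM in IWP2. CDC20, an activator of the anaphase-promoting complex, measured 91.9 and 115.9 FPKM in DMSO and 98.4 and 108.9 FPKM in IWP2. For both, the IWP2 samples fell inside the DMSO range.

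The kinetochore genes CENPE and CENPF had the lowest and the highest estimates of the mitotic members. CENPE, a kinesin that aligns chromosomes, measured 7.95 and 11.5 FPKM in DMSO and 5.72 and 5.27 FPKM in IWP2. Both IWP2 samples were lower, and the DMSO samples differed from each other more than the IWP2 samples did. Its log2 fold change was -0.71 (-1.18 to -0.23, limma adjusted p = 0.0674), a ratio of 0.564. Without DMSO 1 it was called at -0.95 (limma adjusted p = 0.0419), without DMSO 2 it was -0.46 (limma adjusted p = 0.161), and without either IWP2 sample the adjusted p was 0.252 or 0.31. CENPF, a large kinetochore and nuclear matrix protein, measured 25.0 and 26.0 FPKM in DMSO and 31.1 and 35.8 FPKM in IWP2. It was higher in both IWP2 samples (0.38, 0.11 to 0.64, limma adjusted p = 0.0747). Of the spindle motors, KIF11 had an estimate of -0.23 and KIF20A -0.05. MKI67, the proliferation marker Ki-67, measured 16.5 and 22.3 FPKM in DMSO and 15.7 and 12.8 FPKM in IWP2 (-0.41, limma adjusted p = 0.196). TOP2A, the topoisomerase that untangles sister chromatids, measured 50.0 and 64.3 FPKM in DMSO and 59.8 and 55.4 FPKM in IWP2. Its IWP2 samples lay between the DMSO samples.

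The DMSO samples differed from each other in the mitotic genes. Mitotic members were higher in DMSO 2 than in DMSO 1 in 19 of 20 cases, with a median log2 difference of 0.22. For the S-phase members this was 16 of 24 (66.7%, median 0.06), and over all genes tested it was 50.1%. CDKN1A, the p53-induced inhibitor p21 of the cyclin-dependent kinases, also separated the DMSO samples, at 81.8 FPKM in DMSO 1, 22.8 FPKM in DMSO 2 and 17.2 and 19.3 FPKM in IWP2. Its part in the mitotic values was not tested. The mean log2(FPKM + 1) of the S-phase members was 5.11 and 5.14 in DMSO and 5.20 and 5.18 in IWP2, and that of the mitotic members was 5.39 and 5.604 in DMSO and 5.38 and 5.41 in IWP2. The mean of the mitotic members thus stood apart in DMSO 2 alone. The S-phase mean differed between the groups by 0.06 (pooled SD 0.02), with both IWP2 samples above both DMSO samples, and the mitotic mean by -0.11 (pooled SD 0.11). The S-phase mean minus the mitotic mean was -0.28 and -0.46 in DMSO and -0.18 and -0.23 in IWP2, so both IWP2 samples lay above both DMSO samples. The group means differed by 0.17 (pooled SD 0.09), and the DMSO samples differed from each other by 0.18. Without DMSO 2 the difference was 0.08 and the median log2 fold change of the mitotic members was -0.005, and without DMSO 1 these were 0.26 and -0.20. An exact permutation test of 2 against 2 samples cannot go below p = 0.333, so no p is given.

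**Figure D4:**
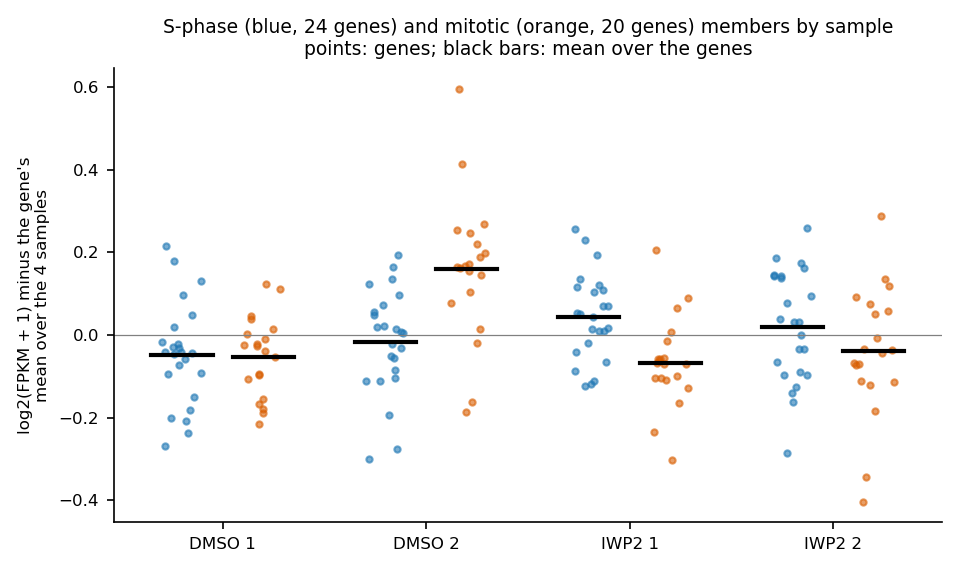
Log2(FPKM + 1) of each gene minus its mean over the 4 samples (y axis) in the 4 samples (x axis), for 24 S-phase genes (blue) and 20 mitotic genes (orange), with black bars for the mean over genes. The mitotic genes are high in DMSO 2, where their mean log2 level was 5.604 against 5.38 to 5.41 in the other samples.

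Further genes of the same processes were described in the same way. They come from the same 4 libraries and were listed with earlier results known, so they are no independent support. Of 40 other replication genes, 1 was called higher and 0 lower (2.5%, beside 15.2% of all genes tested). Without adjustment, 7 had a limma p below 0.05 (17.5%, beside 30.3% of all genes), and the median log2 fold change was 0.06. The primase subunit PRIM2 (0.47, limma adjusted p = 0.0639) and DNA ligase I (LIG1, 0.42, limma adjusted p = 0.0701) had estimates above 0 and were not called.

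Of 48 other mitotic genes, 0 were called higher and 3 lower (CEP55, NUF2 and RACGAP1), which is 6.25%, beside 15.2% of all genes tested. Without adjustment, 9 had a limma p below 0.05 (18.8%, beside 30.3% of all genes). Estimates were below 0 in 36 and above 0 in 12 (25.0%, beside 47.6% of all genes), with a median of -0.14. Both IWP2 samples lay below both DMSO samples in 25 genes (52.1%, beside 32.0% of all genes). In 4 genes (8.33%, beside 28.0%) both lay above. CEP55, which recruits the abscission machinery to the midbody in cytokinesis, measured 44.01 and 47.0 FPKM in DMSO and 16.5 and 17.1 FPKM in IWP2. This was the largest difference of the list (-1.38, -1.61 to -1.16, limma adjusted p = 0.00131), and the groups were far apart. NUF2, a subunit of the NDC80 kinetochore complex, measured 18.2 and 20.3 FPKM in DMSO and 13.0 and 12.5 FPKM in IWP2 (-0.55, limma adjusted p = 0.0261). RACGAP1, a centralspindlin subunit that was picked after its values were seen, fell by 0.45 on the log2 scale (limma adjusted p = 0.0358), and the condensin subunit NCAPG (-0.50, limma adjusted p = 0.0727) was not called. These genes too were mostly higher in DMSO 2 than in DMSO 1, in 42 of 48 cases (87.5%).

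Among 18 tested genes of the E2F and DREAM regulators, 0 were called higher and 2 lower (11.1%, beside 15.2% of all genes tested), with a median of -0.05. Both are atypical E2F repressors. E2F8 measured 8.22 and 9.67 FPKM in DMSO and 4.15 and 5.57 FPKM in IWP2 (-0.77, limma adjusted p = 0.0396), and E2F7 measured 9.08 and 7.73 FPKM in DMSO and 5.49 and 4.68 FPKM in IWP2 (-0.63, limma adjusted p = 0.0436). The IWP2 samples were lower throughout. LIN54, the MuvB subunit that contacts the CHR, was not called (-0.38, limma adjusted p = 0.152). Of the 5 tested inhibitors of cyclin-dependent kinases, 1 was called: CDKN1B (p27) measured 15.0 and 15.2 FPKM in DMSO and 10.6 and 10.9 FPKM in IWP2 (-0.46, limma adjusted p = 0.0359). CDKN1A (-1.21, limma adjusted p = 0.228) and CDKN2B (0.62, limma adjusted p = 0.142) had larger estimates and were not called, and the high CDKN1A value rested on DMSO 1. These lists were compiled with earlier results of the same samples known.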

How the data were processed

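RNA-seq libraries (Illumina TruSeq RNA) were made from 2 DMSO and 2 IWP2 samples. The deposited table holds FPKM values per gene and sample, made by the authors. The submitters' processing notes name BWA, Bowtie, RSEM and hg19, without versions or settings. The gene coordinates in the table were those of GENCODE release 29 on GRCh38 for 97.3% of rows and for all 44 members, so the build used for quantification is uncertain. Whether counting used strand was not given in the sources used here, and 10 members overlap another tested gene (MCM2, MCM7, GINS2, RFC4, POLA1, TYMS, CCNE2, CCNA2, CDC25C and KIF20A), so reads there may be shared.

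Genes with a mean of at least 1 FPKM were fitted as log2(FPKM + 1) with limma 3.58.1 (eBayes with a mean trend, R 4.3.3) and adjusted by Benjamini-Hochberg over all genes tested. The fit pulls the variance of each gene toward a trend over all genes, so intervals and p-values do not rest on a gene's own samples alone. The pseudocount lowers the fold change of low genes. The fit was run on simulated data whose planted changes were larger than the estimate of any member. That run therefore does not show how the fit handles changes of the members' size. The members and all lists were chosen with earlier results of these data known. Fully described members were the called ones or, with fewer than 10 called, the 10 with the smallest p, plus the members with the highest and lowest mean of each phase; for the other lists, the 3 genes with the largest change were named, except 1 of the other replication genes, which is not reported here. Promoter windows came from RefSeq (GRCh38.p14). One DMSO and one IWP2 sample share each replicate number, which the labels do not tie to a culture or day. The columns of the DMSO samples were assigned to the group and numbered as in the table header. Alternatives were another pseudocount, no filter, median-of-ratios scaling, no mean trend, a replicate block, each sample left out, repeated symbols summed, and CCNA2 counted with the S-phase members.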

Additional observations from a re-analysis of the deposited data

How the results depend on the processing

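Leaving out one sample at a time gave 238 to 1375 called genes over all genes, 0 called S-phase members each time, 0 to 1 called mitotic members, a median log2 fold change of 0.0199 to 0.0917 for the S-phase members and of -0.20 to -0.005 for the mitotic members, and a difference in the S-phase minus mitotic balance of 0.08 to 0.26. In these fits the lone sample of a group was assumed to vary like the others. Without the filter on low values, 381 of 28917 genes and 0 S-phase members were called (MCM3, adjusted p = 0.0731). Without the mean trend 0 S-phase members were called (MCM3, adjusted p = 0.0745). With median-of-ratios scaling 2 were called, MCM3 and MCM6 (MCM6, adjusted p = 0.047). The cause of these shifts was not tested. With the replicate block, MCM3 was still the one member called (limma adjusted p = 0.0467) and 1927 genes were called in all. Same-numbered samples shared only a number, and the correlation of their deviations from the group means was 0.152 over genes. The smaller pseudocount and summing repeated symbols also called MCM3 and no other member, and counting CCNA2 with the S-phase members gave medians of 0.04 and -0.05. Every difference in balance kept its direction in these alternatives. Read depth, which is not recoverable from FPKM, limits what can be said of low genes such as CCNE2.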
